A study of Mus musculus with 35 samples.

Results

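These results describe 7 of the 35 arrays of a microarray study of pancreatic lymph nodes, namely all those labelled as NOD nodes taken at 10 days of age, chosen by their titles. On each array, RNA from pancreatic lymph nodes of female NOD mice (NOD/LtJ) carried the dye Cy3, and pooled RNA from female NOD.B10 mice (NOD.B10Sn-H2b/J) carried Cy5. NOD.B10 mice share the NOD background but have the major histocompatibility complex (MHC) of a B10 strain on chromosome 17, and the labels call their RNA the control. The study text describes 2 pools of NOD.B10 nodes, each from 10 mice, taken at 10 days and at 20 weeks, and which of them an array received is not labelled. Later arrays carried NOD nodes taken at 4, 8, 12, 16 and 20 weeks. The labels give every NOD sample the disease state diabetic, also at 10 days, and no glucose value is given. Nothing in the labels says that the 7 arrays came from separate mice. The spread behind each p-value is therefore only how much arrays of the same age differed, for whatever reason. It was taken over all ages of the study, so the later arrays also shaped the p-values at 10 days.

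NOD mice develop autoimmune diabetes spontaneously, in which T cells destroy the insulin-producing beta cells of the pancreatic islets. The pancreatic lymph node drains the pancreas, and T cells that recognise beta-cell proteins are first activated there. The MHC is the strongest genetic determinant of this disease, and mice of the NOD background that carry another MHC are protected. In newborn mice the liver still makes blood cells beside its plasma proteins, and alpha-fetoprotein, the main plasma protein of the fetus, is still made in quantity.

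Each spot gave a log2 ratio of its processed NOD and NOD.B10 signals, NOD over NOD.B10, so that a positive value means a higher signal in NOD nodes. Genes were tested with limma against a ratio of 0, with the spread shared over all 6 ages and Benjamini-Hochberg adjustment over 28438 genes. A gene passed the test at an adjusted p under 0.05, and was called when its mean ratio was also at least 1 in size. The pool stands for a single control sample, whose own spread between mice is left out of every p-value. The dyes were never exchanged, so a dye bias of a probe remains in its ratio. On the 7 arrays 80.7% to 93.5% of spots were well above background in the NOD channel and 71.7% to 90.2% in the NOD.B10 channel. All 7 arrays were read on 1 scanner and on 1 scan day that held no other age, so the age of these mice and their scan day cannot be told apart. Replicate 3 stood apart. It had 3137 spots rejected as outliers, against at most 261 on the others, and its ratios correlated at 0.163 to 0.329 with the other arrays, which correlated at 0.37 to 0.657 among themselves (Pearson's r across genes, which are not independent replicates).

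Most large differences between NOD nodes and the NOD.B10 pool at 10 days were genes lower in NOD nodes. Of 28438 genes, 29 were called higher in NOD nodes (0.102%) and 351 were called lower (1.23%), together 1.34%. Without replicate 3 the numbers were 35 higher and 356 lower. Of the 351 lower genes, 322 had a negative ratio on every array with a value, and 103 had a ratio beyond 2 in size. With no limit on size, 1035 genes passed the test as higher (3.64%) and 1282 as lower (4.51%), 8.15% in all, and the median ratio of all genes was -0.00. The asymmetry was therefore one of size: many genes were slightly higher in NOD nodes, and the called changes were mostly downward.

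**Figure D1:**
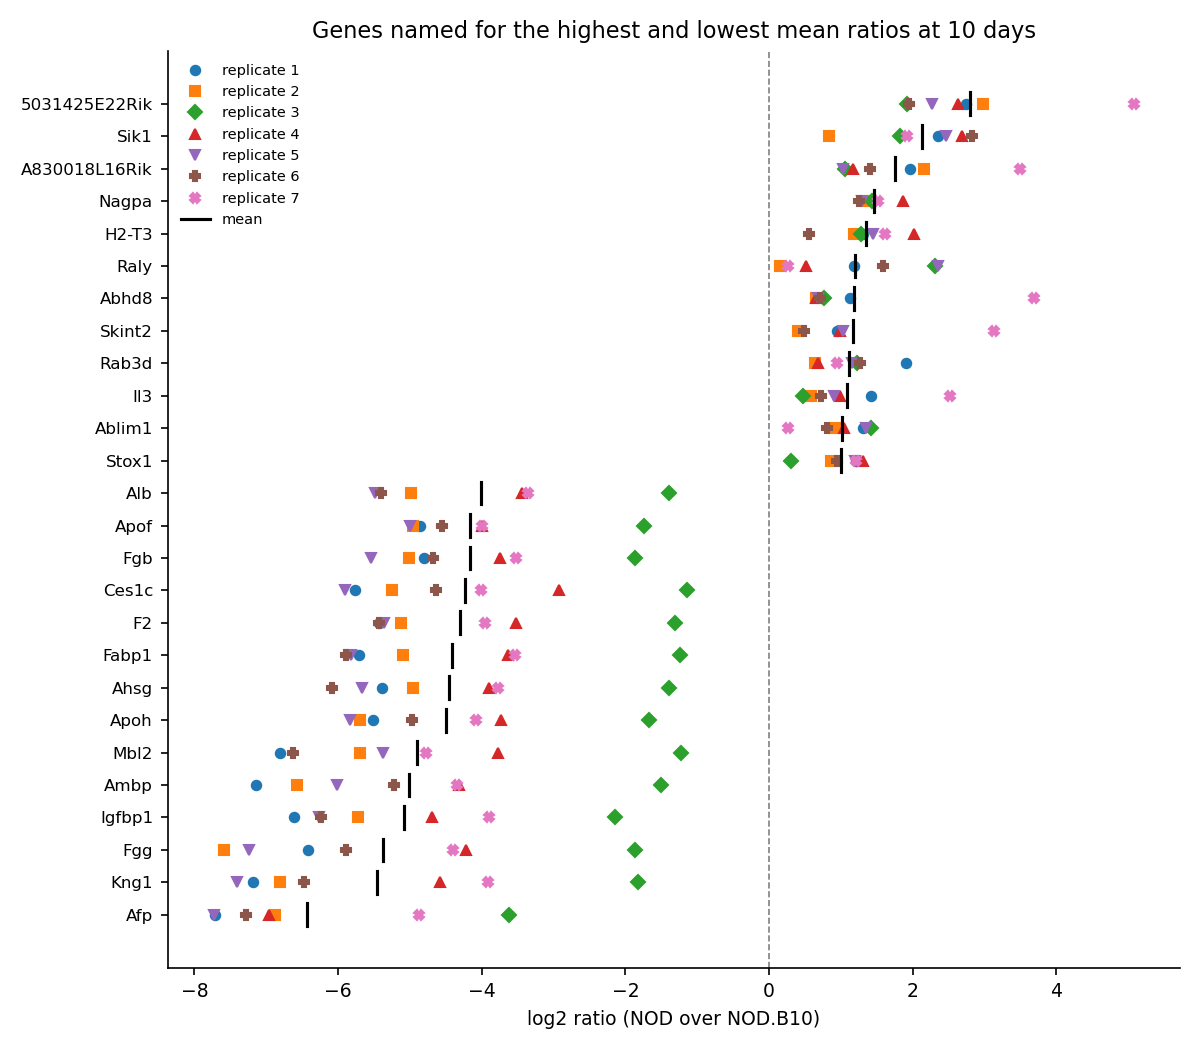
Log2 ratio (NOD over NOD.B10) of each gene on each of the 7 arrays taken at 10 days (one symbol per replicate), for the 12 genes with the highest and 14 of the 15 with the lowest mean ratio among called genes with a symbol and the same sign on every array; the black bar is the mean. In the lower rows, all genes with liver functions, replicate 3 lies closest to 0 for most genes, and Afp reaches a mean of -6.44.

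Genes of the liver's secreted proteins made up the strongest difference. Of 30 measured genes for plasma proteins, 26 fell in NOD nodes and none rose, and 24 of them were called (the background of lower calls was 1.23% of all genes). Their median ratio was -2.63. All 15 of the lowest named genes are made mainly in the liver. Afp, alpha-fetoprotein, was lowest of all, at -6.44 ± 1.57 (SD, n = 7 arrays), which is 86.7-fold lower in NOD nodes (adjusted p = 3.6e-16 in limma). Its ratio ranged over the arrays with a lowest value of -7.73, a median of -6.97 and a highest value of -3.62. Its mean log2 signal after quantile normalisation was 9.49 in the NOD channel, against 16.65 in the NOD.B10 channel. No array had an Afp ratio near 0, and replicate 3 gave the smallest difference.

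Albumin (Alb), the main plasma protein after birth, had ratios of -5.48 at the lowest, -4.21 at the median and -1.39 at the highest on 6 arrays, with a mean of -4.01 ± 1.59 (adjusted p = 3.61e-07). The NOD channel averaged 12.72 and the NOD.B10 channel 17.07 in log2 signal. Both genes are held here beside Fgb, the beta chain of fibrinogen, because they carry the same short motif just before their start. The 200 bases before the annotated start of each are shown from RefSeq (GRCm38.p6), with the HNF1 half-site GTTAAT, or its reverse complement ATTAAC, in capitals. HNF1 is a homeodomain factor of liver, kidney and pancreas.
Afp (chr5:90490514-90490713, plus strand): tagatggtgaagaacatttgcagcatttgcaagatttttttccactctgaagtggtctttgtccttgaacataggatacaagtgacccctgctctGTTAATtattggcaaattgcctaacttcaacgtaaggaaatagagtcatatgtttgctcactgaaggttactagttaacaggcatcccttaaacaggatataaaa
Alb (chr5:90460670-90460869, plus strand): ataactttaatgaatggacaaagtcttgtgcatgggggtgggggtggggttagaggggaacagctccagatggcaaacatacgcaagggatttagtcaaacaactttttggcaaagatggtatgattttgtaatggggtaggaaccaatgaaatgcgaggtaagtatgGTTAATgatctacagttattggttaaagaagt
Fgb (chr3:83049864-83050063, minus strand): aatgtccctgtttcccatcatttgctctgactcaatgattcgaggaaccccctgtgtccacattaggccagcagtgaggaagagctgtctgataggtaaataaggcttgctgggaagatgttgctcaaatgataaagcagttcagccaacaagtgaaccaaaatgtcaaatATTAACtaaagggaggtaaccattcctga

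Of the 30 secreted-protein genes, 22 had a sequence in the promoter table, and 7 of these (31.8%) held GTTAAT on either strand of a 300-base window that spans the start, against 7.1% of 32851 promoters of the table. An HNF4 motif, CAAAGTCCA or TGGACTTTG, was found in none of the 22 and in 0.475% of all promoters. The 7 genes with the half-site were Afp, Alb, F2, Fga, Fgb, Igfbp1 and Vtn. Igfbp1, which binds insulin-like growth factors, had a ratio of -5.08 ± 1.61, and Fgb one of -4.17 ± 1.23. F2, prothrombin, had a ratio of -4.30 ± 1.53 (adjusted p = 8.37e-11). The matches are a description of letters in these windows, and their part in the ratios was not tested.

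The fibrinogen chains Fgg and Fgb, which form the clot, were low together. Fgg had ratios of -7.59 at the lowest, -5.89 at the median and -1.86 at the highest, with a mean of -5.37 ± 2.01 (adjusted p = 3.46e-10). Kng1, the kininogen that releases bradykinin, had a mean of -5.46 ± 2.08 (adjusted p = 2.58e-11), but its probe was well above background in the NOD channel on only 3 of 7 arrays. Ahsg, the fetuin that keeps calcium phosphate in solution, was a bright gene in both channels, with 13.85 in NOD nodes and 18.81 in the NOD.B10 pool. Its ratio was -4.45 ± 1.61, 21.9-fold lower (adjusted p = 1.13e-07). Ambp, the precursor of bikunin, had a ratio of -5.02 ± 1.88, and Mbl2, a lectin that starts complement activation, one of -4.90 ± 1.93, with its NOD channel well above background on 4 of 7 arrays.

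Several apolipoproteins, the protein part of lipoproteins, were among the lower genes. Of 29 genes whose symbols begin with Apo, a group that also takes in genes of other functions, 11 fell and none rose, 10 were called (34.5%) and the median was -0.34. Apoh had a ratio of -4.50 ± 1.48, Apof one of -4.16 ± 1.14 and Apoa2 one of -3.82 ± 1.15 (all with adjusted p under 0.05 in limma). On the arrays, Apoa2 had a lowest ratio of -4.92, a median of -4.25 and a highest of -1.53. Every array was below 0, and replicate 3 was the highest for Apoa2 and, at -1.75, for Apof. Serpins, inhibitors of proteases of the blood, gave 15 lower and 1 higher of 55 genes, 8 of them called lower (14.5%). Both symbol groups were chosen after low members had been seen. Serpinc1, antithrombin, had a ratio of -3.63 ± 1.03, although another probe of this gene gave only -0.76, and Serpind1, heparin cofactor, had one of -3.34 ± 1.04. The vitamin D-binding protein Gc, the haemoglobin-binding protein Hp and angiotensinogen (Agt) had ratios of -3.58 ± 0.72 (n = 6), -2.84 ± 0.84 and -2.90 ± 0.75.

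Enzymes and carriers of liver metabolism followed, with smaller ratios. Of 32 measured genes on this list, 19 fell, 17 of them called, and none rose, with a median of -1.06. Of all genes 4.51% fell and 1.23% were called lower. Fbp1, which catalyses a control step of gluconeogenesis, had a ratio of -3.89 ± 1.09 (adjusted p = 8.96e-11). Gys2, the liver form of glycogen synthase, had one of -3.05 ± 0.74. Fabp1, the fatty acid-binding protein of the liver, had ratios of -5.89 at the lowest, -5.10 at the median and -1.25 at the highest (mean -4.42 ± 1.72, adjusted p = 1.16e-11). Cytochrome P450 genes, which oxidise drugs, steroids and fatty acids, were lower in 22 and higher in 2 of 83 genes with a Cyp symbol, and 16 were called lower (19.3%). Cyp3a44 had the lowest ratio among them, -3.83 ± 1.73, with the NOD channel well above background on 4 of 7 arrays. Carboxylesterases (symbols beginning with Ces) were called lower in 4 of 15 genes, with Ces1c at -4.23 ± 1.72.

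Complement genes moved in both directions. Of 24, 7 fell and 3 rose, with a median of -0.23, while 4.51% of all genes fell and 3.64% rose. Cfi, the protease that inactivates C3b, had a ratio of -1.89 ± 0.55 (adjusted p = 8.39e-11) and C8a, a chain of the membrane attack complex, one of -2.97 ± 0.78 on 6 arrays. C4bp had a ratio of -2.68 ± 0.89 by its brightest probe and -0.21 by another. C2 and C4b, whose genes lie in the MHC, were higher in NOD nodes, at 0.69 ± 0.11 (adjusted p = 1.56e-05) and 0.71 ± 0.15 (adjusted p = 0.00141).

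The secreted liver genes were bright and even in the pool, and dimmer and uneven in NOD nodes. Averaged over the 30 secreted-protein genes, the log2 signal was 9.56 ± 0.97 in the NOD channel and 12.75 ± 0.16 in the NOD.B10 channel (SD, n = 7). Per array the mean ratio of these genes was -3.56 at the lowest, -3.22 at the median and -1.26 at the highest. The highest value was replicate 3, and every array was below 0. On replicate 3 the NOD channel averaged 11.55, against 12.92 in its NOD.B10 channel. In all, 22 of the 30 genes had their highest ratio on replicate 3, which was the highest array for 12.6% of all genes. Left out of the fit, it changed neither direction nor count: 26 of 30 genes fell without it. The SD of a gene's signal over the arrays had a median of 1.06 in the NOD channel and 0.223 in the NOD.B10 channel. Over all genes these medians were 0.387 and 0.381. The NOD.B10 RNA was pooled, so its spread over arrays leaves out differences between control mice. In such bulk RNA, fewer cells of a type and less RNA per cell cannot be told apart. How much liver tissue the NOD samples and the pool held was not tested.

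**Figure D2:**
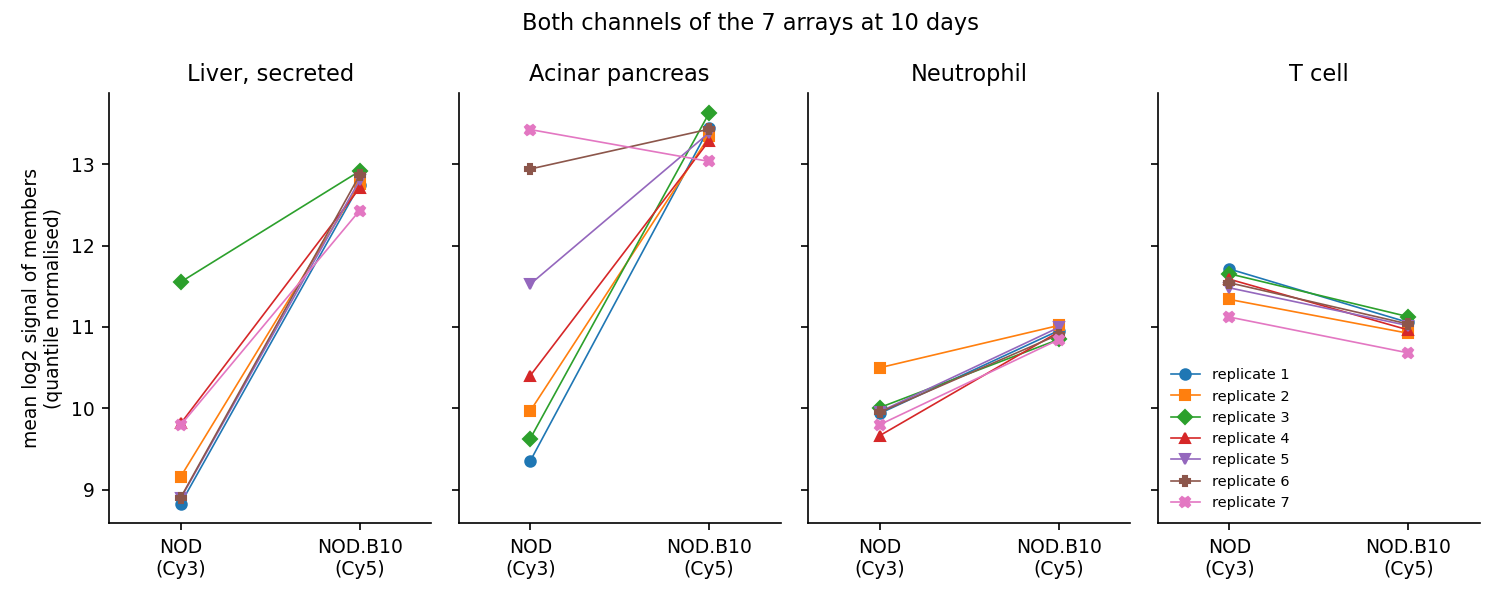
Mean log2 signal (quantile normalised) of the members of 4 gene lists in the NOD channel (Cy3, left) and the NOD.B10 channel (Cy5, right) of each of the 7 arrays taken at 10 days; a line joins the channels of 1 array. The liver and acinar lists spread more between arrays in the NOD channel than in the NOD.B10 channel, which carried pooled RNA. Replicate 3 lies at 11.55 for the liver list in the NOD channel. The T cell list has the higher level in the NOD channel on every array.

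Genes of the exocrine pancreas were the most variable. Acinar cells make digestive enzymes, and pancreas is a tissue that lies against this node. The 36 measured acinar genes had a median ratio of -2.18, about as far from 0 as the liver list. Only 5 passed the test, all 5 of them lower, while 4.51% of all genes passed as lower. The mean ratio of the list was -3.75, -3.18, -3.56, -2.76, -1.71, -0.40 and 0.29 on replicates 1 to 7. Replicates 6 and 7 had acinar signal near or above that of the pool, and 30 of 33 genes with 7 values had both of these arrays above replicates 1 to 4, as had 7.01% of all genes. The NOD channel averaged 11.04 ± 1.63 over the list and the NOD.B10 channel, with its pooled RNA, 13.37 ± 0.18. No member passed without replicate 5, or with scan day as a random block, whereas 11 passed without replicate 7 and 29 when the 7 arrays were fitted without the later ages. How much pancreas each sample held was not tested.

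Prss2, a trypsinogen, had ratios of -4.65 at the lowest, -3.40 at the median and 0.11 at the highest (mean -2.57 ± 2.02, adjusted p = 0.0592), so it did not pass. Its promoter is shown as an acinar example, from the same source and build, with the E-box CAGGTG, here as its reverse complement CACCTG, in capitals; the acinar factor PTF1 binds E-boxes of this kind.
Prss2 (chr6:41521576-41521775, plus strand): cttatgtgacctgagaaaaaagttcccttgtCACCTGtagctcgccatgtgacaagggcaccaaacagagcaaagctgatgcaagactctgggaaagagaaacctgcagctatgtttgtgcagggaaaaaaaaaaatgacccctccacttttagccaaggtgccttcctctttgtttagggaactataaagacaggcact

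The E-box was found in 15 of 28 acinar genes with a promoter sequence (53.6%, any promoter of a gene) and in 20.2% of all promoters of the table. Cpa1, carboxypeptidase A, had a ratio of -2.39 ± 1.83 (adjusted p = 0.0395), which did not pass without any 1 of replicates 1 to 5, and the elastase Cela2a had one of -1.59 ± 2.02 (adjusted p = 0.31). The lectins Reg2, Reg3a and Reg3b, which acinar cells release in injury, had ratios of -3.77 ± 2.09, -2.97 ± 0.95 and -3.96 ± 1.41. Reg3b passed (adjusted p = 0.0167), but not without replicate 5, where its ratio was -3.78 (adjusted p = 0.054).

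**Figure D3:**
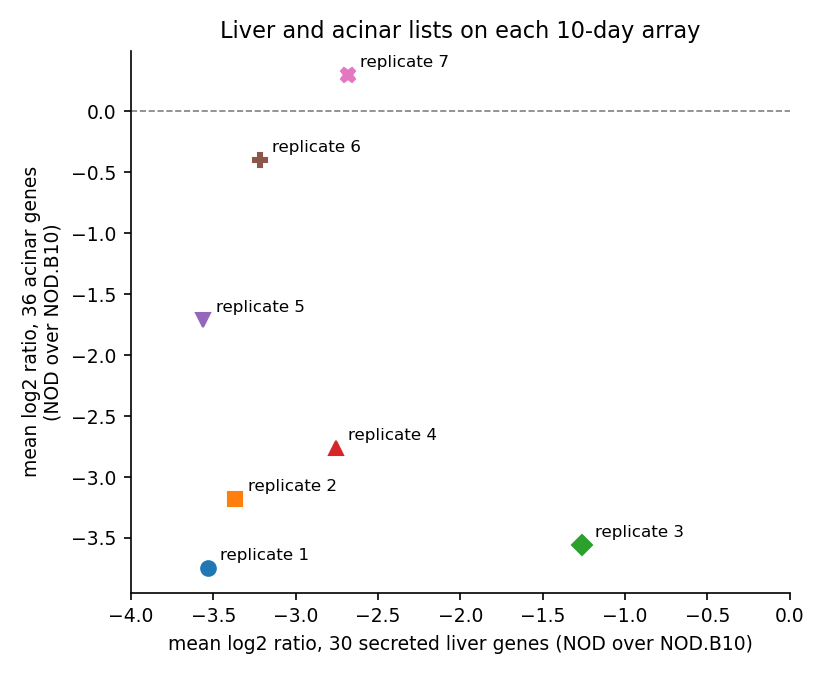
Mean log2 ratio (NOD over NOD.B10) of 30 secreted liver genes (x axis) and 36 acinar genes (y axis) on each of the 7 arrays taken at 10 days. Replicate 3 alone has a liver mean above -2 while its acinar mean is -3.56, and replicates 6 and 7 have acinar means of -0.40 and 0.29 with low liver means.

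The liver and acinar lists thus departed from their own group on different arrays. Islet hormones were on the side of the acinar genes. Ins2, a preproinsulin gene, had ratios of -4.33 at the lowest, -3.59 at the median and -1.24 at the highest (mean -3.19 ± 1.28, adjusted p = 0.00749). Ins1, the other, had a mean of -2.20 ± 0.82 (adjusted p = 0.0235), and did not pass without replicate 1, 3, 4 or 5. Gcg, preproglucagon, had -3.01 ± 1.13 by its brightest probe (adjusted p = 0.000337) and -0.22 by another. Of 34 islet genes 5 fell and none rose, while 4.51% of all genes fell, and the median was -0.15, so the list as a whole lay near 0. The number that fell was 3 without replicate 5, 2 with scan day as a random block and 8 with software version as a block. Metallothionein Mt2, which binds zinc and copper, also fell, at -2.26 ± 0.78. Deaf1, a transcription factor linked to the display of tissue antigens in this node, had a ratio of -1.71 ± 1.15 on 6 arrays and did not pass (adjusted p = 0.182). Its other probes gave -0.09 and 0.41. Aire, which drives tissue antigens in the thymus, had 0.09 ± 0.18 (adjusted p = 0.808).

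Markers of blood-forming and myeloid cells were lower in NOD nodes. Of 20 neutrophil genes 10 fell, all of them called, with a median of -0.93, and of 30 erythroid genes 11 fell with a median of -0.78. Of 14 megakaryocyte genes 9 fell with a median of -0.75, and of 22 genes of mast cells, basophils and eosinophils 7 fell with a median of -0.30. None of these lists had a member that rose. The share of all genes that passed as lower was 4.51%. With software version, scanner or scan day as a block the neutrophil genes that fell were 4, 5 or 6 in number and the megakaryocyte genes 5, 2 or 3, while the lower genes among all those tested dropped to 736, 356 or 429. The megakaryocyte number was also 5 without replicate 1 or replicate 4. Of the genes of mast cells, basophils and eosinophils 3 fell with scanner as a block. The secreted liver genes were low on the same arrays, and their part in the blood lists was not tested. At 10 days the list means were -0.76 for erythroid, -0.90 for neutrophil, -0.67 for megakaryocyte and -0.48 for mast cell, basophil and eosinophil genes. In the same order, the means at later ages ranged from -1.70 to 0.94, -1.08 to 0.96, -0.85 to 0.48 and -0.31 to 0.07. All but the last list thus had a lower mean at some later age than at 10 days.

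S100a8 and S100a9, the subunits of calprotectin in neutrophil cytoplasm, had ratios of -1.85 ± 0.49 (adjusted p = 0.00118) and -1.71 ± 0.43 (adjusted p = 0.00088). S100a8 lay at -2.37 at the lowest, -1.96 at the median and -0.85 at the highest, below 0 on every array. The granule genes Ctsg, a protease, and Ms4a3, a marker of granulocyte precursors, had -1.45 ± 0.38 and -1.42 ± 0.35. The stefins, inhibitors of cysteine proteases that are abundant in mouse neutrophils, were lower still, with Stfa2 at -2.23 ± 0.85, Stfa3 at -2.25 ± 0.92, Stfa2l1 at -2.30 ± 0.93 and Csta2 at -2.25 ± 0.90. These 4 genes are near-identical copies, so their probes may read each other's RNA.

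Platelet genes were even across arrays. Pf4, a chemokine of platelet granules, had ratios of -1.87 at the lowest, -1.46 at the median and -1.09 at the highest (mean -1.51 ± 0.29, adjusted p = 1.7e-05), and Ppbp, its neighbour in function, had a mean of -1.47 ± 0.29. Clec1b, the platelet receptor of podoplanin, had -1.41 ± 0.22 (adjusted p = 2.3e-05). Among eosinophil and basophil genes, the ribonucleases Ear1 and Ear6 had -1.71 ± 0.53 and -1.82 ± 0.57. The basophil protease Mcpt8 had -1.41 ± 0.52 with its NOD channel well above background on 5 of 7 arrays. The eotaxin receptor Ccr3 was 2.01-fold lower by its brightest probe, and another probe gave a ratio of -0.40.

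In the red cell line, Tfrc, the transferrin receptor, had a ratio of -1.02 ± 0.41, Ermap one of -1.34 ± 0.49, and the transcription factor Tal1 one of -1.03 ± 0.32. Hbb-y, an embryonic beta-like globin, had -1.14 ± 0.46 (adjusted p = 0.00322). Other globins differed less from the pool. Hbb-bh1 passed at -0.74 ± 0.30 (adjusted p = 0.0407 in limma). Hba-a1 at -0.64 ± 0.52, Hba-x at 0.04 ± 0.34 on 6 arrays and Hbb-bt at 0.25 ± 0.45 did not pass (adjusted p = 0.223, 0.968 and 0.776). The erythroid count moved with single arrays and blocks: 5 members passed without replicate 4 or replicate 7 and 1 with scanner as a block. Of 25 macrophage genes 5 fell and 2 rose, while 4.51% of all genes fell and 3.64% rose. Among those lower, Slc40a1, the iron exporter ferroportin, had -1.18 ± 0.27 (adjusted p = 5.15e-05) and Cd5l, a secreted macrophage protein, -1.11 ± 0.16. With scanner or scan day as a block 2 macrophage genes fell and none rose.

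Genes of the T cell receptor pathway were higher in NOD nodes on all 7 arrays, by a small and even amount. Of 26 T cell genes 17 rose and none fell, against 3.64% of all genes that rose, and the median ratio was 0.48. The mean of the list was 0.34 on the lowest array, 0.40 at the median and 0.53 on the highest, with 0.43 ± 0.08 over arrays. In log2 signal the list averaged 11.49 ± 0.20 in the NOD channel and 10.97 ± 0.14 in the NOD.B10 channel. Zap70, the kinase that binds the activated receptor, had ratios of 0.73 at the lowest, 0.88 at the median and 1.06 at the highest (mean 0.87 ± 0.14, adjusted p = 2.35e-05). Lat, the adaptor that Zap70 phosphorylates, averaged 0.64 ± 0.11 and Bcl11b, a factor that maintains T cell identity, 0.91 ± 0.22 on 6 arrays. All arrays were above 0 for these 3 genes.

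The receptor's own chain Cd3e depended on the probe. Its brightest probe gave -0.15 ± 0.11 on 6 arrays (adjusted p = 0.73), and another probe gave 0.70 and passed in the fit that kept only probes bright in both channels. Without replicate 1 the number of T cell genes that rose was 11, without replicate 3 it was 15, with scanner as a block 6 and with scan day as a random block 10. No T cell gene fell in any of these fits.

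Genes by which naive T cells enter and stay in lymph nodes moved the same way. Of 20 such genes 9 rose and none fell, while 3.64% of all genes rose. Their median was 0.41 and their mean over arrays 0.40 ± 0.08. Il7r, the survival receptor, had 0.73 ± 0.19, and Lef1, a transcription factor of naive T cells, 0.76 ± 0.22. Itgb7, an integrin chain for homing to the gut and its nodes, had 0.67 ± 0.13 (adjusted p = 0.000443). Ccr7, the receptor for the node chemokines, averaged 0.61 ± 0.14 (adjusted p = 0.0068). Klf2, which drives exit from nodes, had 0.69 ± 0.17 on 6 arrays and did not pass (adjusted p = 0.0826). With scanner as a block 1 member of this list passed, and with scan day as a random block 4 did.

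Regulatory T cell and effector genes showed little. Of 18 regulatory T cell genes 2 rose, Gpr83 at 0.47 ± 0.20 among them, while 3.64% of all genes rose. Foxp3, their defining factor, had a ratio of 0.45 ± 0.46 (adjusted p = 0.185) and the checkpoint receptor Ctla4 one of -0.04 ± 0.34 (adjusted p = 0.945). Il2 had -0.06 ± 0.80 and Ifng 0.15 ± 0.24, and neither passed. Of 27 natural killer and cytotoxic genes 1 rose (3.7%), near the share of all genes.

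B cell and stromal genes differed less between the channels than T cell genes. Of 27 B cell genes 3 rose and 1 fell, with a median of 0.10. Together 14.8% of them passed, against 8.15% of all genes, of which 3.64% rose and 4.51% fell. Ms4a1, which encodes CD20, had a ratio of -0.07 ± 0.16 and did not pass (adjusted p = 0.781). Of 18 genes of node stroma 1 rose and none fell, and the mean over arrays was 0.06 ± 0.09. Ccl19, the chemokine that gathers T cells in the node, had log2 signals of 17.76 in NOD nodes and 17.54 in the pool, with a ratio of 0.01 ± 0.19 (adjusted p = 0.991). In log2 signal the B cell list averaged 11.40 in the NOD channel and 11.22 in the NOD.B10 channel, and the stromal list 12.54 and 12.42. In the NOD.B10 channel the secreted liver list (12.75) and the acinar list (13.37) were brighter than either, so brightness alone does not mark node tissue. Vpreb1, a surrogate light chain of B cell precursors, was lower in NOD nodes, at -1.33 ± 0.20 on 6 arrays (adjusted p = 0.000313), as was Vpreb3, at -0.57 ± 0.21. Rag1, the recombinase of precursor cells, had -0.31 ± 0.41 and did not pass (adjusted p = 0.499).

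**Figure D4:**
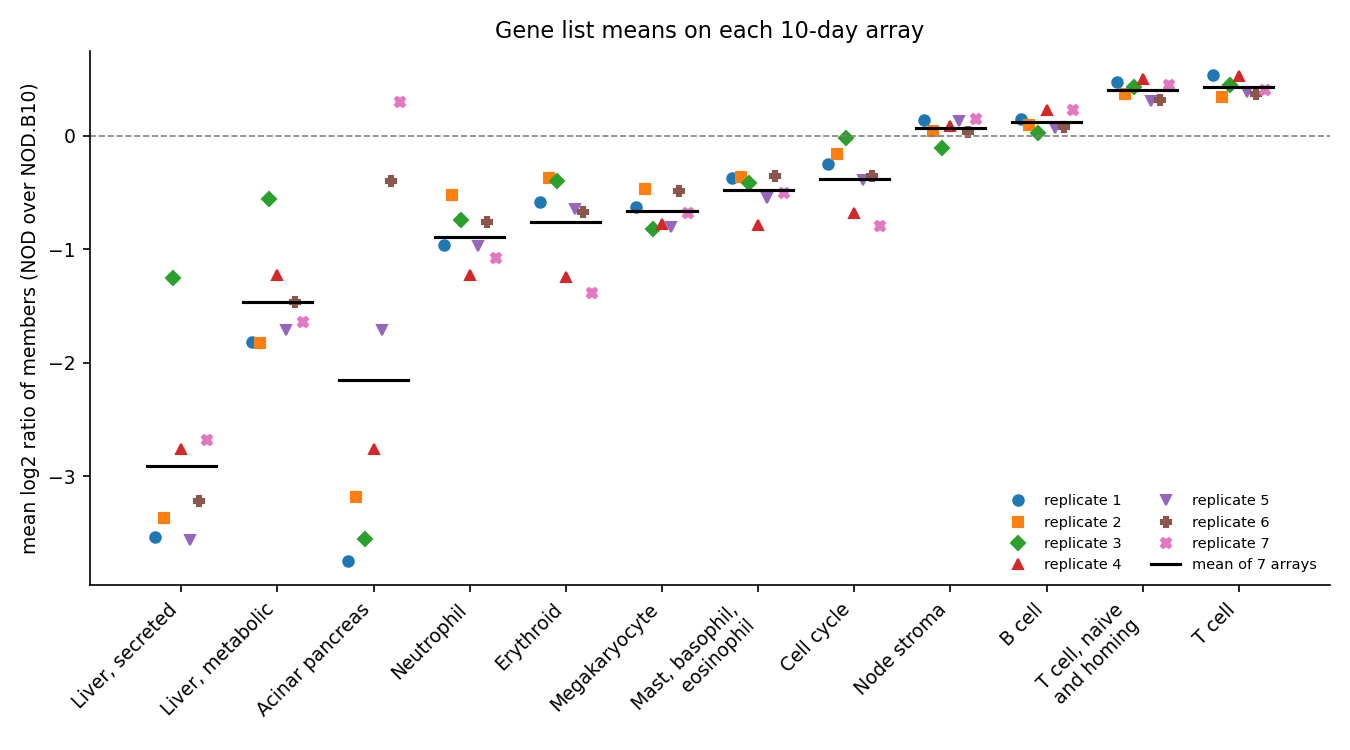
Mean log2 ratio (NOD over NOD.B10) of the members of 12 gene lists on each of the 7 arrays taken at 10 days (one symbol per replicate), with the mean of the arrays as a bar. The liver and acinar lists lie low and spread widely, the blood lists lie below 0 and the T cell lists lie between 0.31 and 0.53 on every array.

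Proliferation and growth genes were lower, with ratios under 1 in most cases. Of 46 cell cycle genes 12 fell and none rose, with a median of -0.43, while 4.51% of all genes fell and 3.64% rose. Pcna, the sliding clamp of DNA replication, had -0.68 ± 0.25 (adjusted p = 2.98e-05) and Ccna2, cyclin A, had -0.92 ± 0.36. This count was 4 without replicate 4 or replicate 7 and 0 with scanner as a block. Of 21 genes of fetal growth and imprinting 6 fell and 1 rose. Igf2, the fetal growth factor, had ratios of -2.22 at the lowest, -1.30 at the median and -0.74 at the highest (mean -1.38 ± 0.53, adjusted p = 0.000414), below 0 on every array. H19, the imprinted RNA next to Igf2, had -0.65 ± 0.14 (adjusted p = 0.0141). Of 42 genes of oxidative phosphorylation 11 fell and 2 rose, a count that was 3 and 1 without replicate 1. Newborn liver also uses these growth genes, and the part of the low liver genes in these lists was not tested. The cell cycle list averaged -0.38 at 10 days, and its means at later ages ranged from -0.71 to 0.25.

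Some fat and lipid genes fell. Of 26 adipocyte genes 5 fell (4.51% of all genes did) and all 5 were called. The number that fell was 3 without replicate 1, 3 or 4, and with software version, scanner or scan day as a block it was 1, 3 or 2. Pck1, an enzyme of gluconeogenesis and glyceroneogenesis in liver and fat, had -2.90 ± 1.07 (adjusted p = 0.00159). Lpl, the lipase of capillaries in fat and muscle, had -1.04 ± 0.46 by its brightest probe and -0.36 by another. Of 24 lipid and sterol genes 5 fell and 1 rose, with the fatty acid importer of mitochondria, Cpt1a, at -0.55 ± 0.21 by its brightest probe and 0.03 by another. With software version, scanner or scan day as a block 3 of the lipid and sterol genes fell. Ppara, the fasting regulator, had -1.22 ± 0.79, with its NOD channel well above background on 4 of 7 arrays.

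Chromosome 17, which holds the MHC, did not carry a larger share of calls than other chromosomes. Of 915 genes placed there 12 were called (1.31%), against 309 of 18345 on the others (1.68%). With no limit on size 117 passed (12.8%, with 69 higher and 48 lower), against 1767 (9.63%, with 763 higher and 1004 lower). The difference between chromosomes was not tested. The 12 called genes were D17H6S56E-5, Clps, Abcg5, Apom, Cyp4f15, Plg, Unc93a, Slc22a7, Acat3 and Trem3, all lower, and H2-T3 and Sik1, both higher.

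D17H6S56E-5, a transcript of the MHC region, had a large and even difference. Its ratio was -3.25 at the lowest, -3.14 at the median and -2.51 at the highest, with a mean of -2.96 ± 0.32 (7.77-fold lower, adjusted p = 1.73e-13). Its second probe gave -2.52 ± 0.29. The same gene was low at every later age, with mean ratios between -4.24 and -3.49. H2-T3, a nonclassical class I gene, had ratios of 0.56 at the lowest, 1.31 at the median and 2.01 at the highest (mean 1.34 ± 0.44, adjusted p = 6.89e-06). NOD and NOD.B10 mice differ in the MHC, and whether any probe of an MHC gene reads both forms of its RNA alike was not tested.

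Antigen presentation genes went both ways. Of 23 class I pathway genes 6 rose and 2 fell, with a median of 0.02, and of 16 class II genes 3 rose and 1 fell, with a median of 0.16, while 3.64% of all genes rose and 4.51% fell. The class I number that rose was 3 without replicate 1, 4 or 7 and 1 with scanner as a block. H2-Ab1 and H2-Aa, the chains of the class II molecule I-A, had 0.57 ± 0.14 (adjusted p = 0.000234) and 0.80 ± 0.15 (adjusted p = 0.007), though another H2-Aa probe gave -0.46 and another H2-Ab1 probe 0.13. Tap1, which carries peptides to class I molecules, had 0.75 ± 0.20 on 6 arrays, and Psmb8, a subunit of the immunoproteasome, 0.55 ± 0.15. H2-DMb2, which helps to load class II peptides, had 0.81 ± 0.25 (adjusted p = 1.9e-05). The classical class I genes H2-K1 and H2-D1 had 0.45 ± 0.21 and 0.22 ± 0.19 and did not pass (adjusted p = 0.114 and 0.256). H2-Eb1 and H2-Ea had 0.32 ± 0.21 and 0.52 ± 0.76 and did not pass. B2m, the light chain of class I, had -0.24 ± 0.26 (adjusted p = 0.126). Interferon-gamma targets gave 5 higher and 1 lower of 23, with Tgtp1 and Gbp4, both GTPases, at 0.75 ± 0.29 and 0.61 ± 0.22, though another Tgtp1 probe gave -0.23, while type I interferon genes gave 1 higher and 2 lower of 30.

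The genes highest in NOD nodes formed no group on the lists. Of the 29 called higher 13 had a symbol and 2 were on any list. Sik1, a salt-inducible kinase, had ratios of 0.83 at the lowest, 2.35 at the median and 2.83 at the highest (mean 2.13 ± 0.68, 4.37-fold, adjusted p = 7.6e-07), above 0 on every array. With scanner as a block it had 1.33 and did not pass (adjusted p = 0.0877). Nagpa, the enzyme that uncovers the mannose 6-phosphate tag of lysosomal proteins, was the most even, with 1.26 at the lowest, 1.43 at the median and 1.87 at the highest (mean 1.45 ± 0.20, adjusted p = 1.85e-11). The transcript 5031425E22Rik had the highest mean, 2.79 ± 1.08, with 5.08 on replicate 7 and a NOD.B10 channel well above background on 5 of 7 arrays.

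Several of the high genes rested on 1 array or 1 probe. Abhd8 had a median of 0.71 but 3.70 on replicate 7, and another probe gave 0.22. Skint2 averaged 1.16 on 6 arrays, with 3.13 on replicate 7, and did not pass without replicate 7 (adjusted p = 0.105). Rab3d, a small GTPase of secretory granules, had 1.12 ± 0.43 by its brightest probe and -0.19 by another. Raly, an RNA-binding protein, had 1.20 ± 0.93 and did not pass without replicate 3 or 5 (adjusted p = 0.0641 and 0.0722). Il3, a growth factor of basophils and mast cells, had ratios of 0.47 at the lowest, 0.91 at the median and 2.52 at the highest (mean 1.09 ± 0.70, adjusted p = 0.00285), above 0 on every array. Ablim1, an actin-binding protein, averaged 1.02 ± 0.40, with 0.00 to 0.94 from its other probes, and Stox1 averaged 1.01 ± 0.35.

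The 10-day ratios were then set against the mean of the 5 later ages in the same fit. Of 28438 genes 170 were higher at 10 days (0.598%) and 283 lower (0.995%), and for 54 genes (0.19%) the values at 10 days did not overlap those at any later age. Genes made in the liver were among the lowest. Afp differed by -6.01 (adjusted p = 8.9e-14), with mean ratios of -6.44 at 10 days and between -0.85 and -0.04 later. Apof differed by -4.49, Slc27a2, a fatty acid transporter of the liver, by -3.77, Serpind1 by -3.38, and Pzp, a protease-binding plasma protein, by -3.08. For Slc27a2 the choice of probe decided the result, since its other probes gave -0.20 and 0.01 at 10 days. C8a, Itih3 and Cyp2d26 differed by -2.83, -2.67 and -2.61.

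On average both channels of the secreted liver genes were higher at 10 days than later, the NOD.B10 channel by more. For the secreted liver list the NOD.B10 channel averaged 12.75 at 10 days, whereas its later means were 8.38 to 9.11, and no later array exceeded 9.24. The NOD channel averaged 9.56 at 10 days and between 8.22 and 8.93 later. Its 10-day arrays lay at 8.83 at the lowest, 9.16 at the median and 11.55 at the highest (replicate 3). Single later arrays reached 9.35, so the NOD channel overlapped between ages. The list ratio at the later ages ranged from -1.04 to 1.05 over arrays, so no later array overlapped the 10-day range of -3.56 to -1.26. For the acinar list the ranges did overlap, with later list ratios between -7.25 and 2.79. For the T cell list the mean ratio was 0.43 at 10 days, whereas later means lay between -0.18 and 0.36, with overlap of single arrays.

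**Figure D5:**
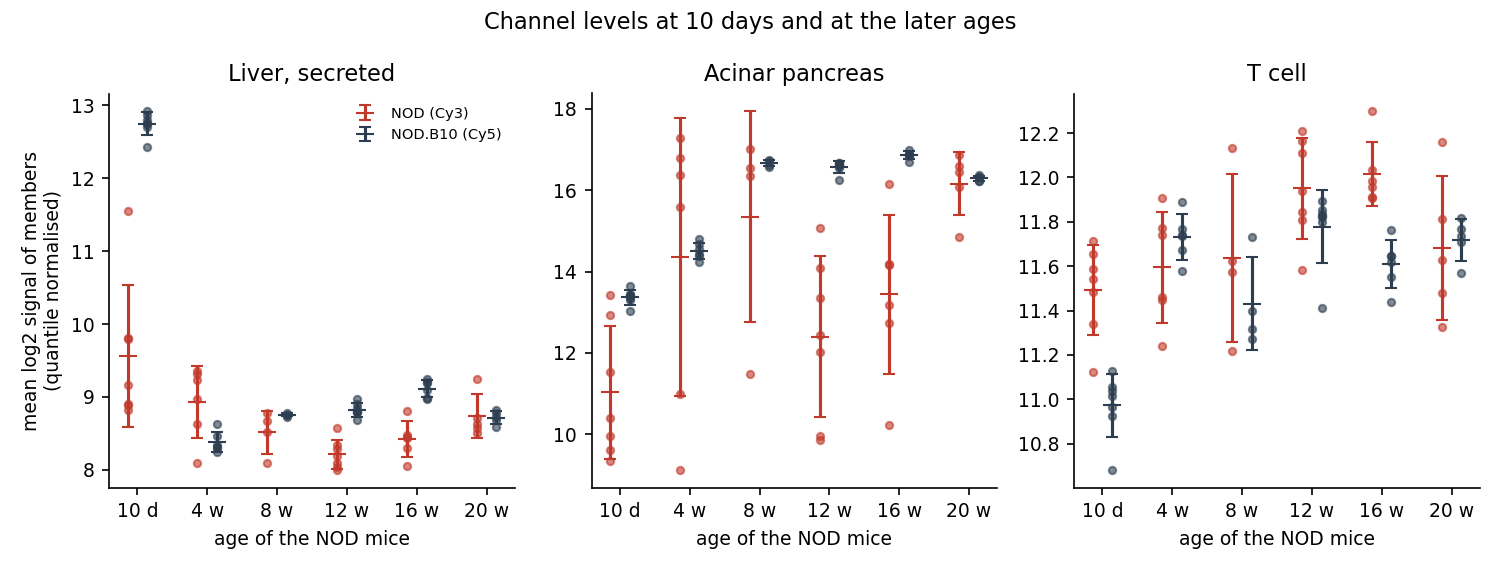
Mean log2 signal (quantile normalised) of 3 gene lists in the NOD channel (red, left of each pair) and the NOD.B10 channel (dark blue, right) at each age; points are arrays and bars are mean ± SD over 4 to 7 arrays. The secreted liver genes are high in the NOD.B10 channel at 10 days only (12.75), while acinar genes spread widely in the NOD channel at every age.

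Genes higher at 10 days relative to later ages included members of the MHC. The class I genes H2-M2 and H2-D1 each differed by 1.24 and H2-T23 by 1.13. H2-D1 averaged 0.22 at 10 days and -2.54 at 4 weeks, with -1.05 to -0.47 at the other ages. H2-M2 averaged -0.09 at 10 days and H2-T23 -0.38, so the distance came from low ratios at the later ages. Outside the MHC, Tmem165, a Golgi membrane protein, differed by 1.81, Tnrc6b, a partner of Argonaute proteins, by 1.69, and H1f10, a linker histone, by 1.67, with 10-day ratios of 0.75 ± 0.18, 0.64 ± 0.12 and 0.72 ± 0.16 by their brightest probes. At 10 days the other probe of Tmem165 gave -0.12, that of H1f10 -0.02, and those of Tnrc6b -0.03 to 0.60. Arl4d, a small GTPase, differed by 1.60, and Rusc1 by 1.29 with a 10-day ratio that did not pass (0.57 ± 0.21, adjusted p = 0.0733). Their other probes gave 0.10 for Arl4d and -0.17 for Rusc1 at 10 days. Nagpa differed by 1.19, with later mean ratios between -0.11 and 0.92. The later ages were spread over other scan days than the 10-day arrays, so an effect of scan day cannot be told apart from age here. The NOD.B10 channel also differed between ages. For the erythroid list it averaged 11.86 at 10 days, 11.69 at 4 weeks and 9.49 at 8 weeks. A difference in ratio between ages can therefore come from either channel, and the part of each was not tested.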

How the data were processed

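Per the labels, RNA was isolated with RNeasy columns and amplified with a kit for low RNA input. The processed intensity of each channel was background-subtracted and dye-normalised within the array by Feature Extraction, version 8.1.1.1 per the file headers of these 7 arrays and 8.5 per the submitters' processing notes. The authors' deposited log10 ratios, NOD over NOD.B10, were the scanner's own log10 values (Cy5 over Cy3) with the sign turned, were 0 for spots with surrogate signals, and served as an alternative. Genome coordinates of the probes were not used.

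Control spots and spots rejected as outliers were left out and saturated spots were kept. On replicate 1, 1195 deposited spots had no scanner entry and were not used. Of 41174 probes, 40833 passed a filter that asked for a signal well above background, in NOD or NOD.B10, on 4 or more arrays, and the brightest probe stood for a gene, giving 28438. Names were updated through a RefSeq gene table (GRCm38.p6). Accessions named 21445 probes, symbols 5431 and synonyms 4636, while 9662 kept the name in the file.

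The log2 ratios computed from the deposited intensities were fitted with limma 3.58.1 (lmFit and eBayes) as 6 age means over 35 arrays, in R 4.3.3, with Benjamini-Hochberg adjustment at 0.05 and a size limit of 1. Channel levels are log2 signals, quantile normalised over all 70 channels. Precision is limited by how many arrays there were. The fit was checked on simulated data. The alternatives were other background corrections, filters on dim probes, centring, blocks for scanner, scan day, software version and replicate number, array weights, and leaving out each array.

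The genes and the 45 lists were chosen with earlier results of these data known. Names follow a rule: the 15 highest and 15 lowest called ratios with 1 sign on all arrays, the 10 largest differences each way from later ages without overlap, up to 4 members of each list, and a set of genes always given. Of the genes that meet it, those that matter most are printed, and some are not reported here. D17H6S56E-5, the stefins, Csta2, Mt2, Cyp3a44, Gc, Hp and Agt and the other called genes of chromosome 17 were chosen after their values were seen. So were the symbol groups Apo, Serpin, Cyp and Ces, whose shares are therefore a description only. Over the symbol groups counted, the share called lower ran from 2.13% (Slc) to 100% (Stfa).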

Additional observations from a re-analysis of the deposited data

Results flagged for a closer look

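Among 148 list means and gene ratios tested for an array far from the others, 14 had one, and chance gives about 1 in 20. Replicate 3 was that array 7 times. It gave the mean of the secreted liver genes (-1.26), Apof (-1.75), Slc27a2 (-1.45), Serpinc1 (-1.499), Fbp1 (-1.49) and Agt (-1.36), each closer to 0 than on the other arrays, and Il2 (-1.84), farther below 0. Replicate 7 was that array 5 times. It gave 5031425E22Rik (5.08), Abhd8 (3.70) and Skint2 (3.13), far above the others, and Reg3b (-0.93) and Mt2 (-0.65), closer to 0. Nagpa on replicate 4 (1.87) and H2-Ea on replicate 5 (2.02) also lay far from the other arrays.

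The ratio at 10 days differed from the mean of the later ages, in the limma contrast of ages and with no overlap of arrays, for several genes named above. The differences on the log2 scale were -6.01 for Afp, -4.49 for Apof, -3.77 for Apoa2, -3.77 for Slc27a2, -3.38 for Serpind1, -3.08 for Pzp, -2.83 for C8a, -2.67 for Itih3 and -2.61 for Cyp2d26. They were 1.81 for Tmem165, 1.69 for Tnrc6b, 1.67 for H1f10, 1.60 for Arl4d, 1.29 for Rusc1, 1.24 for H2-M2, 1.24 for H2-D1, 1.13 for H2-T23 and 1.19 for Nagpa.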

How the results depend on the processing

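The 380 calls at 10 days became 162 with normexp and loess (152 of them shared), 232 with only probes bright in both channels, 2317 without a size limit, 1146 with a smaller limit, and 109 with a limit of 2. Leaving out each array gave 311 to 431. The 453 differences from later ages became 141, 264, 2880, 1651 and 85 under the same settings and 276 with scan day as a random block. They were 3636 from the NOD channel alone, 4365 from the NOD.B10 channel alone, and 4040, 436, 1173, 1713 and 1660 against 4, 8, 12, 16 and 20 weeks alone, and 394 to 490 without each array. Equal replicate numbers did not pair arrays, whose same-number correlations lay between -0.10 and 0.13. With the number as a replicate block 378 genes were called at 10 days and 419 differed from later ages.

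Of 116 genes named in the text that passed, all with a value kept their direction in every fit checked gene by gene. The fit over all probes was not among these, and other probes of some genes had the opposite sign, as given above. Fitting the 7 arrays alone, or with scan day as a random block, left the mean ratios as they were and could not change a direction. Past the test were 116 with normexp, 91 with software version, 68 with scanner and 91 with scan day as a block, and 108 to 115 without each array. List means moved with normexp to -0.86 for liver metabolism, -0.25 for islet, -0.51 for megakaryocyte and -0.30 for mast cells, basophils and eosinophils, the last being -0.66 over bright probes.

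Ratios near 0 changed sign and did not pass, except Cd3e, which was 0.70 over probes bright in both channels. Ccl19 was -0.0043 with normexp, -0.0023 with centring, -0.045 without replicate 1 and -0.027 without replicate 6 (up to 0.049 without an array), and Ifng was -0.0083 with normexp. With the software version as a block, Ms4a1 was 0.0076, Ctla4 0.22 and Il2 0.26. With scanner as a block, Ms4a1 was 0.048 and Aire -0.0044. Without single arrays, Ctla4 ranged from -0.11 to 0.053 (replicate 2 left out), with 0.019 for replicate 6, and Il2 from -0.15 to 0.23 (replicate 3). With array weights Il2 was 0.046. The cause of these changes was not tested. Genes well above background on few arrays in the NOD channel, such as Kng1 and C8a, are limited by the signal over background there.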

Other observations

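Further genes that passed the test at 10 days, by the limma test, and kept it without each array in turn are given here. Genes higher in NOD nodes included Ltb, the lymphotoxin chain that lymphoid tissue needs to form, at 0.62 ± 0.12 (SD, n = 7), Il2rg, the shared receptor chain of several interleukins, at 0.73 ± 0.17, and Btk, a kinase that signals from the B cell receptor, at 0.82 ± 0.35. Of the 33 genes on the cytokine list 4 rose and 3 fell, with a median of 0.07, while 3.64% of all genes rose and 4.51% fell. The smooth muscle actin gene Acta2 had 0.65 ± 0.15 by its brightest probe, but its other probes gave -0.45 to -0.23. Il16, a chemoattractant of CD4+ T cells, had 0.43 ± 0.14. Ratios were above 0 on every array for all 5 genes by the probe used.

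Genes lower in NOD nodes included Il1b, an inflammatory cytokine of myeloid cells, at -0.81 ± 0.23, and Fcgr1, a high-affinity antibody receptor of macrophages, at -0.79 ± 0.14. Cd24a, a surface protein of immature blood cells and epithelia, had -0.94 ± 0.41, and Slc38a4, an imprinted amino acid transporter, had -0.84 ± 0.23 by its brightest probe and 0.05 by another. Cox7b and Atp5j, small subunits of the respiratory chain and ATP synthase, had -0.72 ± 0.32 and -0.46 ± 0.16, though other Cox7b probes gave -0.04 and 0.16. Ratios were below 0 on every array for all 6 genes by the probe used. With scanner, scan day or software version as a block some of these ratios did not pass, and the count for all genes named in the text is given under the processing.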
